A study of Arabidopsis thaliana with 8 samples.

Results

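Transcripts of 10 genes that sense and move phosphate were examined in Arabidopsis leaves. These genes were chosen by locus from the 30361 features of the array, with earlier results of these data known. They were the sensor genes SPX1 (AT5G20150), SPX2 (AT2G26660), SPX3 (AT2G45130) and SPX4 (AT5G15330), the exporter genes PHO1 (AT3G23430) and PHO1;H1 (AT1G68740), the uptake transporter genes PHT1;1 (AT5G43350) and PHT1;4 (AT2G38940), the transcription factor gene PHR1 (AT4G28610) and PHO2 (AT2G33770), the gene of a ubiquitin-conjugating enzyme. Each locus had 1 feature, built on its first gene model, and the RefSeq symbol matched the name used here for all 10. Leaves came from a transgenic line, line 57, that carries DGTT2, a diacylglycerol acyltransferase gene of the green alga Chlamydomonas, and from wild type (WT) plants, with 4 biologically independent RNA samples of each. All plants were 6 weeks old and had grown on soil at 22 °C, in days of 16 h light and 8 h dark. The DGTT2 samples were of 1 line, so an effect of the transgene cannot be told apart from other features of that line, and neither the promoter of the transgene nor the phosphate supply is given in the sources used here.

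Plants sense phosphate through inositol pyrophosphates, which bind the SPX domain and let SPX proteins hold back PHR1. When phosphate is short, PHR1 is released and turns on a set of genes that includes SPX1 and SPX3, PHT1 transporters, non-coding RNAs of the IPS1 and At4 type, phosphatases and enzymes that replace phospholipids with galactolipids. PHO2 acts on the protein level, by sending PHO1 and PHT1 transporters to degradation, and its own transcript is cut through the microRNA miR399.

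The 8 arrays correlated with each other across features at 0.988 to 0.995, with medians of 10.19 to 10.28 on the log2 scale. They lay on 2 slides, each with 2 DGTT2 and 2 WT arrays. DGTT2 arrays took positions 3 and 4 of a slide and WT arrays positions 1 and 2, so an effect of position cannot be told apart from genotype. The leaf label was checked against 6 leaf markers, of which 5, among them the Rubisco activase gene RCA, had means from 14.88 to 15.98 in both genotypes. The transcript of DGTT2 itself was not analysed here. In bulk leaf RNA, more cells of a type and more RNA per cell cannot be told apart, which holds for every difference below.

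The study set the leaf transcripts of DGTT2 plants, described by the study as redirecting carbon from surface lipids into oil, against those of WT, and the comparison here asks which phosphate genes differ. None of the 10 genes passed the threshold of 0.05 for the adjusted p (limma, Benjamini-Hochberg adjustment over all 30361 features), which 22 features (0.0725%) passed. A feature that passed it is called changed. In simulated data with the spread of the real features, the same fit called 12% of changes of 0.5 and 74% of changes of 1 on the log2 scale. A change of about 0.5 would thus mostly be missed. The simulated fit called 93 features in all, against 22 in the real data, and its noise was independent between features. Its share of recovered changes may thus be higher than in the real fit. At an unadjusted p under 0.05 there were 2 of the 10, SPX3 and PHO1;H1, both with the higher mean in DGTT2, where 10.5% of all features reached that p and 4.56% did so with a higher mean in DGTT2. The DGTT2 mean was above the WT mean in 8 of the 10, against 49.7% of all features. In the lists described below, of 3 to 20 genes, this share also varied. It was 71.4% in other PHT1 genes, 61.5% in organelle and vacuole transporters, 65% in signalling partners and 44.4% in other PHO1 relatives. Markers had 66.7% (leaf, root and senescence), 75% (vascular) and 33.3% (guard cell), so a share above 49.7% was not particular to phosphate genes. The median difference, DGTT2 minus WT, was 0.15 on the log2 scale over the 10 genes and -0.001 over all features. The genotypes overlapped in all 10, while 5.64% of all features showed no overlap. The 95% interval of the difference lay within 2-fold in all 10, as it did in 91.9% of all features.

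**Figure D1:**
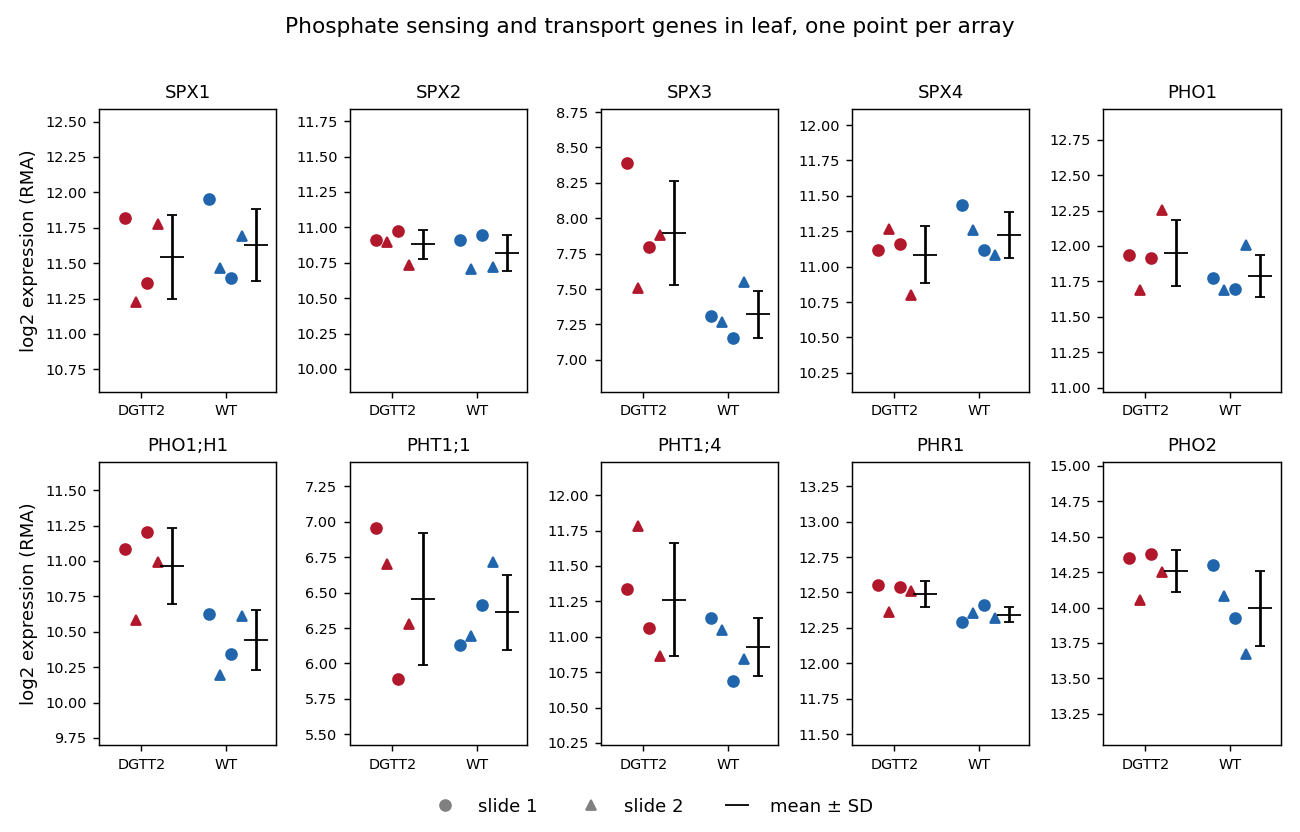
Log2 expression of each gene (vertical axis, RMA values, every panel spanning 2 log2 units) in the 4 DGTT2 and 4 WT arrays, with circles for slide 1, triangles for slide 2 and bars for mean ± SD (n = 4). SPX3 and PHO1;H1 have the widest gaps between genotype means, 0.57 and 0.52, and in each a DGTT2 array lies below the highest WT array.

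Of the SPX genes, which encode the small nuclear and cytosolic sensors, SPX3 was the one whose means lay furthest apart. SPX3, a gene known for strong induction in phosphate shortage, was at 8.39, 7.51, 7.79 and 7.88 in DGTT2 replicates 1 to 4, against 7.31, 7.27, 7.16 and 7.55 in WT replicates 1 to 4. DGTT2 replicate 1 stood highest, and DGTT2 replicate 2 lay just below WT replicate 4, so the genotypes overlapped by that pair of arrays. The mean was 7.89 ± 0.37 in DGTT2 and 7.32 ± 0.17 in WT (SD, n = 4 each), a log2 difference of 0.57 (SE 0.18, 95% interval 0.16 to 0.98), or 1.49-fold. The unadjusted p was 0.0111 and the adjusted p was 0.286 (limma). By p it ranked 1178 among all features, within the first 3.88%.

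SPX1, a nuclear partner of PHR1 and like SPX3 a gene of the starvation response, showed no such gap. It was at 11.82, 11.23, 11.36 and 11.77 in DGTT2, against 11.96, 11.47, 11.39 and 11.69 in WT. Replicates 1 and 4 were the high arrays in both genotypes, and the genotypes overlapped over most of their range. The difference was -0.08 (95% interval -0.48 to 0.31, adjusted p = 0.926, limma), with an upper end of 1.24-fold. It was 0.02 without DGTT2 replicate 2 and 0.03 without WT replicate 1. The values of SPX1 and SPX3 had r = 0.33 over the 8 arrays (Pearson, exact permutation p = 0.435, rho = 0.29, exact permutation p = 0.501), and r = 0.69 without the 2 arrays farthest from the SPX1 median. With the mean of each genotype on each slide removed, which leaves 4 independent deviations, r was 0.87.

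SPX2, the closest relative of SPX1 in the family, varied little, at 10.91, 10.89, 10.97 and 10.74 in DGTT2 and 10.91, 10.70, 10.95 and 10.72 in WT. Its difference was 0.06 (95% interval -0.17 to 0.29, adjusted p = 0.903, limma), 0.02 without WT replicate 2 and 0.11 without DGTT2 replicate 4. SPX2 values were ordered by slide. The 4 arrays of slide 2 averaged 10.76 and those of slide 1 averaged 10.94, with no overlap between slides, which 3.87% of all features showed. In a fit with genotype, the slide difference of SPX2 was -0.17 (unadjusted p = 0.09, adjusted p = 0.629, limma).

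SPX4, which unlike SPX1 and SPX3 is not induced by phosphate shortage, was at 11.12, 11.27, 11.16 and 10.80 in DGTT2. In WT it was at 11.43, 11.26, 11.11 and 11.08, and the genotypes overlapped except for DGTT2 replicate 4 at the low end and WT replicate 1 at the high end. The difference was -0.14 (95% interval -0.43 to 0.16, adjusted p = 0.795, limma). Without DGTT2 replicate 4 it was -0.04.

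Of the exporter genes, PHO1;H1 had the wider gap between genotype means. PHO1;H1, the relative of PHO1 that can take over part of its role in loading phosphate into the xylem and is induced in phosphate shortage, was at 11.08, 10.58, 11.20 and 11.00 in DGTT2, against 10.62, 10.20, 10.34 and 10.61 in WT. DGTT2 replicates 1, 3 and 4 lay above every WT array, DGTT2 replicate 2 lay just below WT replicates 1 and 4, and WT replicate 2 was lowest of all. The mean was 10.97 ± 0.27 in DGTT2 and 10.44 ± 0.21 in WT (SD, n = 4 each). The log2 difference was 0.52 (SE 0.16, 95% interval 0.17 to 0.88), or 1.44-fold, with an unadjusted p of 0.00881 and an adjusted p of 0.266 (limma), rank 1003 among all features.

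PHO1, the exporter that releases phosphate into the xylem and also acts in guard cells, was at 11.94, 11.69, 11.91 and 12.25 in DGTT2 and at 11.77, 11.69, 11.69 and 12.01 in WT. Replicate 4 was the highest array in each genotype. The difference was 0.16 (95% interval -0.15 to 0.46, adjusted p = 0.765, limma), and 0.06 without DGTT2 replicate 4.

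Of the uptake transporters, PHT1;1 is the main importer of roots and PHT1;4 serves roots and shoots. PHT1;1 was low on this array, at 6.95, 6.70, 5.89 and 6.28 in DGTT2 and 6.13, 6.19, 6.41 and 6.71 in WT. Its values lay around 5.95 to 6.89, the median and the upper quartile of the mean levels of 4414 pseudogene features, so it was not shown to lie above background. The DGTT2 arrays held both the highest and the lowest value, and the difference was 0.09 (95% interval -0.43 to 0.61, adjusted p = 0.935, limma). Without DGTT2 replicate 1 it was -0.07. PHT1;2 (AT5G43370), a near-identical relative that lies next but one to PHT1;1 in gene order with PHT1;3 between them, averaged 6.35 ± 0.26 in DGTT2 and 6.29 ± 0.26 in WT (SD, n = 4 each). The probes behind these features were not known here, so signal shared between the pair cannot be told apart.

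PHT1;4 was at 11.34, 11.78, 11.06 and 10.86 in DGTT2, against 11.13, 11.05, 10.68 and 10.84 in WT. DGTT2 replicates 1 and 2 lay above all WT arrays and the other DGTT2 arrays lay within the WT range. The difference was 0.33 (95% interval -0.11 to 0.78, adjusted p = 0.612, limma). It was 0.16 without DGTT2 replicate 2.

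PHR1, the MYB-type factor at the head of the transcript response, is known to be regulated little at the transcript level. It was at 12.55, 12.36, 12.54 and 12.51 in DGTT2, against 12.29, 12.35, 12.41 and 12.32 in WT. Only DGTT2 replicate 2 fell inside the WT range. The spread within genotypes was narrow, with a pooled SD of 0.07 against a median of 0.20 over all features. The difference was 0.15 (95% interval -0.05 to 0.35, adjusted p = 0.629, limma), so an increase of PHR1 beyond 1.27-fold lay outside the interval.

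PHO2 was at 14.35, 14.06, 14.38 and 14.25 in DGTT2, against 14.30, 14.08, 13.93 and 13.67 in WT. WT replicates 3 and 4 lay below all DGTT2 arrays, and WT replicates 1 and 2 lay within the DGTT2 range. The difference was 0.26 (95% interval -0.06 to 0.59, adjusted p = 0.585, limma), and 0.15 without WT replicate 4. The 7 loci listed for the precursors of miR399 and miR827 matched no row and were not analysed here, so PHO2 could not be set beside the microRNA that cuts it.

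**Figure D2:**
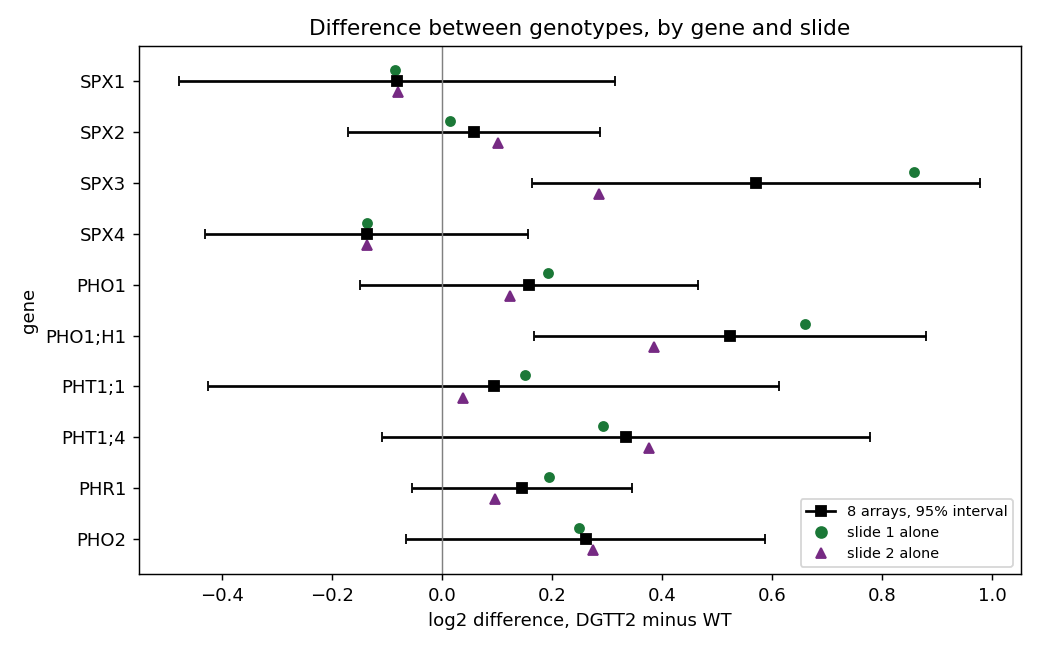
Log2 difference between genotypes (horizontal axis, DGTT2 minus WT) for each gene, with squares and 95% intervals from all 8 arrays, circles from slide 1 alone and triangles from slide 2 alone. The intervals of SPX3 and PHO1;H1 lie above 0 and the other 8 include 0, and SPX3 is at 0.86 on slide 1 and 0.29 on slide 2.

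Each slide holds 2 arrays of each genotype and was also fitted alone. The difference of SPX3 was 0.86 on slide 1 and 0.29 on slide 2, and that of PHO1;H1 was 0.66 on slide 1 and 0.39 on slide 2. A test of the change between slides, chosen after the data were seen, gave a difference of -0.57 for SPX3, slide 2 minus slide 1 (SE 0.34, unadjusted p = 0.131, adjusted p = 1, limma), and -0.27 for PHO1;H1 (SE 0.30, unadjusted p = 0.397, adjusted p = 1, limma). With slide as a fixed block the adjusted p was 0.263 for SPX3 and 0.201 for PHO1;H1 (limma), in a fit that called 0.227% of all features. On slide 1 alone the unadjusted p was 0.0126 for SPX3 and 0.0119 for PHO1;H1, and on slide 2 alone it was 0.220 for SPX3 and 0.155 for PHO1;H1 (limma). The unadjusted p of both genes stayed under 0.05 in each of the 8 fits that left out 1 array, and the difference then ranged from 0.41 (without DGTT2 replicate 1) to 0.70 for SPX3 and from 0.44 (without WT replicate 2) to 0.65 for PHO1;H1.

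Pairs of the 10 genes were also compared across the arrays. Over the 45 pairs of the 10 genes, 4 had an exact permutation p under 0.05 for Pearson's r and 0 passed after Benjamini-Hochberg adjustment, the smallest adjusted p being 0.277. SPX3 and PHO1;H1 had r = 0.84 (exact permutation p = 0.0065) and rho = 0.83 (exact permutation p = 0.0154), with r = 0.88 without the 2 arrays farthest from the SPX3 median. Their r was 0.47 after the mean of each genotype on each slide was removed. SPX4 and PHO1 ran opposite to each other, with r = -0.81 (exact permutation p = 0.0152) and rho = -0.71 (exact permutation p = 0.0576), and r = -0.71 without the 2 arrays farthest from the SPX4 median. PHR1 had r = 0.78 with SPX3 (exact permutation p = 0.0185, rho = 0.62, exact permutation p = 0.115) and r = 0.77 with PHO1;H1 (exact permutation p = 0.0316, rho = 0.57, exact permutation p = 0.151). Without the 2 arrays farthest from the SPX3 median the first was 0.87. Without the 2 arrays farthest from the PHO1;H1 median the second fell to 0.46. After the mean of each genotype on each slide was removed, r was 0.25 for PHR1 with SPX3 and 0.09 for PHR1 with PHO1;H1. For SPX4 with PHO1 it was -0.76. A single slide has too few arrays for a correlation of its own.

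**Figure D3:**
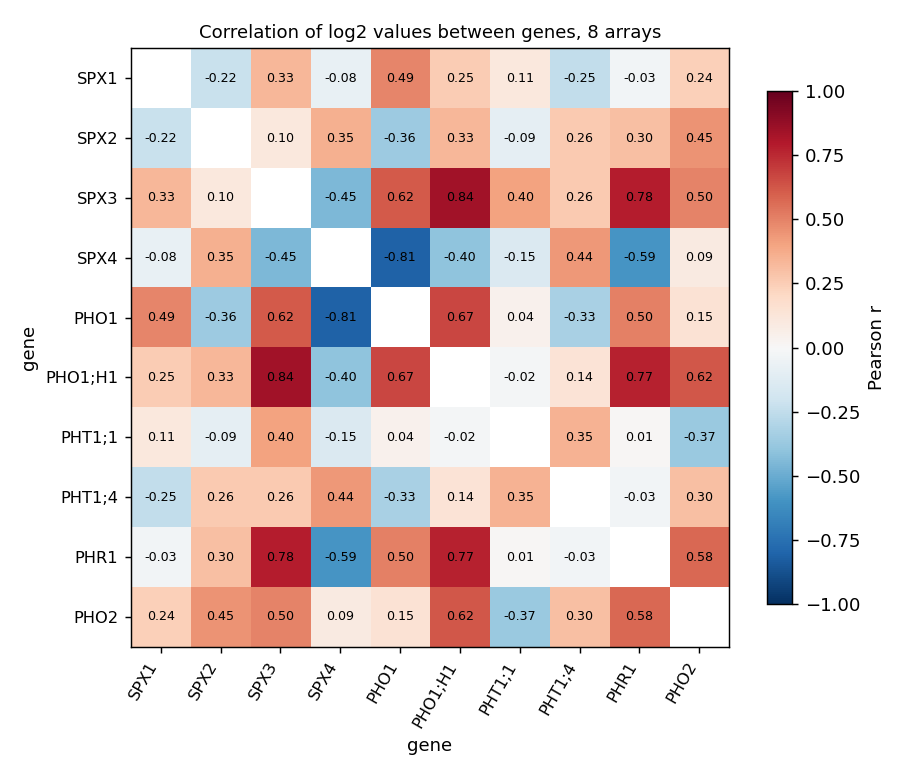
Pearson correlation of log2 values between each pair of the 10 genes over the 8 arrays (colour and printed value, both axes listing the genes). SPX3 with PHO1;H1 has the highest value, 0.84, and SPX4 with PHO1 the lowest, -0.81.

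Outside the 10 genes, the features closest in pattern over the 8 arrays were picked among 30351 others, a search that returns high values in any case, since the hundredth feature in order still had r of 0.83 to 0.88. For SPX1 they were BTI1 (r = 0.98) and SHA (r = 0.95). For SPX3 they were AT3G46950 (r = 0.98) and AT4G10700 (r = 0.97). For PHO1;H1 they were ABCI8 (r = 0.97) and AT5G49210 (r = 0.97). For PHT1;1 they were AT5G28880 (r = 0.98) and ERF38 (r = 0.97). None was a gene of the lists described next.

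A list of 19 genes, taken as targets of PHR1 or of phosphate shortage, was also followed, and the induction of each was not checked here. This list and those below were chosen with earlier results of these data known, so shares beside all features are descriptive. None of the 19 was called (adjusted p under 0.05, limma). At an unadjusted p under 0.05 there were 4, all with the higher mean in DGTT2 (4.56% of all features). In 15 of 19 the mean was higher in DGTT2, against 49.7% of all features and 33.3% to 75% in the transporter, regulator and marker lists below. The median difference was 0.27, against -0.001 over all features. At4 (AT5G03545), a non-coding RNA that binds miR399 and keeps it from PHO2, was at 9.46, 8.84, 8.22 and 8.71 in DGTT2, against 7.87, 7.83, 6.92 and 7.90 in WT. All DGTT2 arrays lay above all WT arrays, and 2 of the 19 genes had no overlap, as 5.64% of all features did. The difference was 1.18 (SE 0.29, 95% interval 0.52 to 1.84), with an unadjusted p of 0.00274 and an adjusted p of 0.192 (limma).

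G3Pp1 (AT3G47420), of a family of glycerol-3-phosphate permeases, was at 12.68, 12.58, 12.22 and 12.42 in DGTT2, against 12.07, 12.05, 11.64 and 12.00 in WT, again with no overlap. Its difference was 0.54 (SE 0.14, adjusted p = 0.2, limma). PS2 (AT1G73010), a pyrophosphate-specific phosphatase induced in phosphate shortage, was at 9.61, 8.67, 9.07 and 8.90 in DGTT2, against 8.60, 8.25, 7.72 and 8.74 in WT. DGTT2 replicate 2 lay below WT replicate 4, and the difference was 0.74 (SE 0.26, adjusted p = 0.338, limma), 1.18 on slide 1 and 0.29 on slide 2. As in SPX3, DGTT2 replicate 1 was the highest array for At4, G3Pp1 and PS2.

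Other genes of this list are given here after their values were seen. IPS1, the non-coding RNA most used as a marker of phosphate shortage, averaged 5.18 ± 0.45 in DGTT2 and 4.88 ± 0.17 in WT (SD, n = 4 each), both under 5.95, the median pseudogene level, so no fold is given. The enzymes of galactolipid and sulfolipid synthesis had differences of -0.01 for SQD1, 0.06 for SQD2, -0.08 for MGD2, 0.27 for MGD3 and 0.12 for DGD2, with unadjusted p-values of 0.148 and above (limma). The 95% interval of MGD3 ran from -0.11 to 0.65, and its difference was 0.48 on slide 1 and 0.06 on slide 2. Of the phospholipases that break down phospholipids, NPC5 was the fourth gene under an unadjusted p of 0.05, at 6.28 ± 0.25 in DGTT2 and 5.98 ± 0.09 in WT (SD, n = 4 each), a difference of 0.30 (unadjusted p = 0.0477, limma, from a fit over all features) in values near background. PLDZETA2 differed by 0.36 (95% interval -0.001 to 0.72, adjusted p = 0.478, limma) and NPC4 by -0.28 (95% interval -0.69 to 0.13). The ribonuclease gene RNS1 averaged 7.35 ± 0.88 in DGTT2 and 6.59 ± 0.28 in WT (SD, n = 4 each), a difference of 0.76 (adjusted p = 0.538, limma) that was 0.45 without DGTT2 replicate 2. Averaged over the 19 genes, the deviation of an array from the mean of all arrays ran from -0.03 to 0.43 in DGTT2 and from -0.28 to -0.05 in WT. DGTT2 replicate 1 was the array at 0.43, and the next DGTT2 array was at 0.11.

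**Figure D4:**
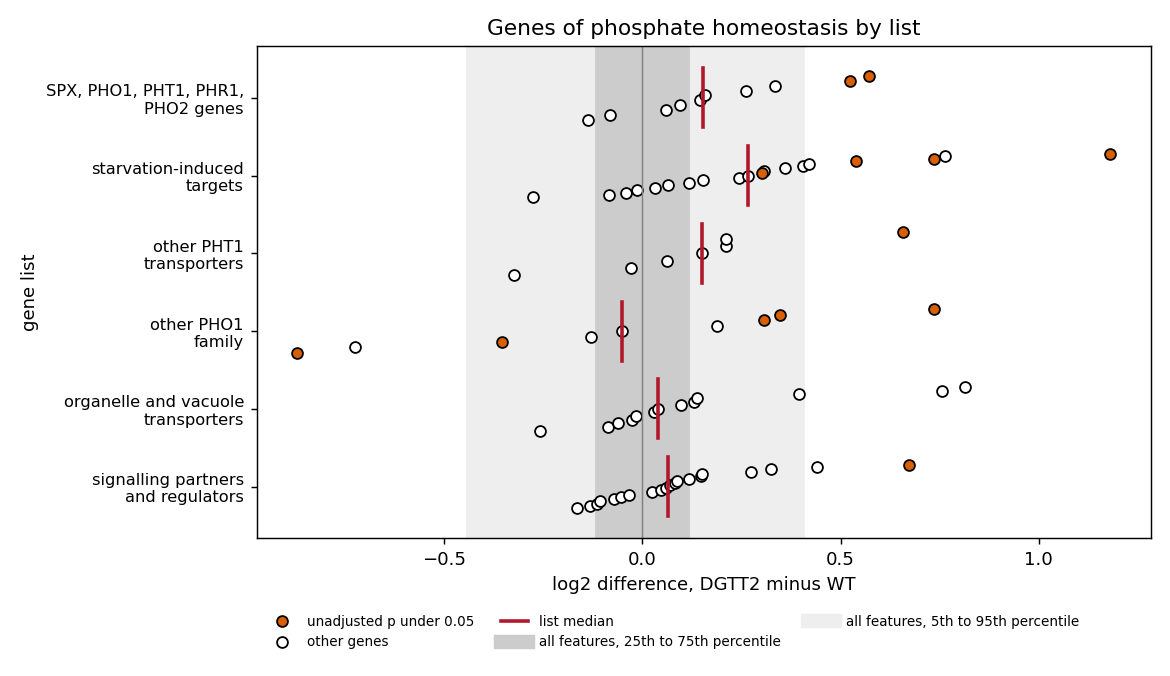
Log2 difference between genotypes (horizontal axis, DGTT2 minus WT) for each gene of 6 lists (vertical axis), with filled points at an unadjusted p under 0.05 and red bars at list medians. The grey bands hold the central part of all 30361 features, -0.12 to 0.12 and -0.44 to 0.41, and the starvation-induced targets have a median of 0.27 with At4 at 1.18.

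The other members of the transporter families did not form 1 pattern. Of 7 other PHT1 genes, 0 were called and 1 reached an unadjusted p under 0.05 (limma; 10.5% of all features did), with a median difference of 0.15. A count of 1 in 7 is near that background. The gene was PHT1;8, at 6.62, 6.94, 7.19 and 7.68 in DGTT2 and 5.87, 6.83, 6.32 and 6.78 in WT, a difference of 0.66 (SE 0.27, adjusted p = 0.428, limma) in values near the background range. PHT1;7 differed by 0.21 and PHT1;5 by 0.21, and both overlapped between genotypes.

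Of 9 other loci listed as relatives of PHO1, 0 were called, while 3 reached an unadjusted p under 0.05 with a higher and 2 with a lower mean in DGTT2 (limma; 4.56% and 5.96% of all features), and the median difference was -0.05. SHB1, a PHO1 relative known from light signalling and seed size, was at 9.31, 9.43, 9.39 and 9.46 in DGTT2, against 9.76, 9.79, 9.89 and 9.57 in WT, with no overlap and a difference of -0.35 (SE 0.10, adjusted p = 0.226, limma). AT1G69480 differed by 0.74 (SE 0.19, adjusted p = 0.199, limma) and AT3G29060 by 0.35 (SE 0.09, adjusted p = 0.216, limma), again with no overlap, which 4 of the 9 loci showed (5.64% of all features). Both genotype means of AT3G29060 and the WT mean of AT1G69480 lay in the background range. The remaining loci at an unadjusted p under 0.05 (limma) are given after their values were seen. The one with the lower mean in DGTT2 averaged 5.65 in DGTT2, under the pseudogene median of 5.95, and 6.52 in WT. The one with the higher mean averaged 13.28 in DGTT2 and 12.98 in WT. The RefSeq table gives AT1G69480 and AT3G29060 no symbol.

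Of 13 phosphate transporters of plastids, mitochondria, the Golgi and the vacuole, 0 were called and 0 reached an unadjusted p under 0.05 (limma), with a median difference of 0.04. PHT4;6, the transporter of the Golgi, was at -0.26 (SE 0.13, adjusted p = 0.54, limma), PHT4;2 of plastids at 0.39 (SE 0.24) and the mitochondrial PHT3;2 at 0.76 (SE 0.47). PHT4;2 was at 0.14 without WT replicate 2 and PHT3;2 at 0.42 without WT replicate 4.

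Among 20 signalling partners and regulators, which include the PHR1 relatives, inositol pyrophosphate kinases and the ubiquitin ligase NLA, 0 were called and 1 reached an unadjusted p under 0.05 (limma), with a median difference of 0.07. A count of 1 in 20 is no more than the 10.5% of all features that reached that p. The gene was WRKY45, a factor known to activate PHT1;1, at 9.85, 9.46, 9.27 and 8.69 in DGTT2 and 8.90, 8.81, 8.28 and 8.58 in WT, a difference of 0.67 (SE 0.24, adjusted p = 0.35, limma). WRKY6, which represses PHO1, was at 0.32 (SE 0.15, adjusted p = 0.496, limma), and UNE16 (AT4G13640), listed with the PHR1 relatives, was at -0.13 (SE 0.10, adjusted p = 0.718, limma).

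Markers of other cell types were read beside these genes, since PHT1 genes are mainly of roots and PHO1 of the vasculature and guard cells. None of the markers was called (limma). The average deviation of 9 root markers ran from -0.18 to 0.18 in DGTT2 and from -0.34 to 0.15 in WT, and the root hair genes RHD6 and EXPA18 had genotype means of 4.82 to 5.61, under the pseudogene median. The root endodermis gene CASP1 had no overlap, at 7.25 ± 0.21 in DGTT2 and 6.42 ± 0.44 in WT (SD, n = 4 each), with the WT mean in the background range. The 3 root markers with the lower mean in DGTT2, added after their values were seen, included the brightest of the list, PYK10, at 9.74 in DGTT2 and 10.40 in WT. Its difference of -0.66 was -0.04 without DGTT2 replicate 4, and those of NRT2.1 and IRT1 were both -0.14. The 4 vascular markers ran from -0.14 to 0.09 in DGTT2 and from -0.09 to 0.16 in WT, with differences of 0.11 for APL, 0.04 for XCP1 and 0.02 for IRX3. The 3 guard cell markers ran from -0.05 to 0.18 in DGTT2 and from -0.12 to 0.01 in WT. MYB60 was at 0.57 (SE 0.14, unadjusted p = 0.00306, adjusted p = 0.196, limma), KAT1 at -0.17 and FAMA at -0.13. The 3 senescence markers ran from -0.21 to 0.25 in DGTT2 and from -0.18 to 0.19 in WT, with SAG13 at 0.58 and NYE1 at 0.03. SAG12 had means of 5.41 in DGTT2 and 5.88 in WT, both under the pseudogene median, so no difference is given. SAG13 was at 0.18 without DGTT2 replicate 2, which stood at 11.23. The 6 leaf markers ran from 0.04 to 0.12 in DGTT2 and from -0.15 to 0.01 in WT, with CAB2 at 0.72, CA1 at 0.14 and RCA at -0.08. CAB2 was low, at 7.47 in DGTT2 and 6.75 in WT, and the other 5 leaf markers differed by -0.08 to 0.14. Of these, RBCS1A, CAB3, RCA and GAPA had means of 15.86 to 15.98, close to the highest value on any array, 15.99. A difference in them could be hidden at the top of the scale, which was not tested. Like CASP1, the markers MYB60 and CAB2 (higher in DGTT2) and FAMA (lower) had no overlap between genotypes, which 5.64% of all features showed. The part of the cell type markers in the differences of SPX3, PHO1;H1 and At4 was not tested.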

How the data were processed

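The table deposited by the authors holds log2 values of 30361 features in 8 one-colour NimbleGen arrays, 4 of DGTT2 and 4 of WT leaves, 1 column each. Per the submitters' processing notes, RMA and Partek were used; for settings, probes and genome build nothing is given in the sources used here. Values ran from 4.20 to 15.99. RMA makes the arrays nearly alike in distribution, so a shift of most genes would not be seen. The precision is limited by the number of arrays. RefSeq (TAIR10.1) was used for names and gene order and matched 29976 features; no coordinates or sequences are given.

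Values were fitted with limma 3.58.1 in R 4.3.3 (lmFit, eBayes, genotype as the only term, two-sided), with p-values adjusted over all features and 95% intervals from the same fit. The same fit was also run on simulated data with the spread of the real features. Of 50 features changed at each size, it called 0% at 0.25, 12% at 0.5, 74% at 1 and 90% at 2 on the log2 scale. It called 93 features in all, with noise drawn independently for each feature, so these shares may be higher than in the real fit. Correlations used exact permutation tests over the 8 arrays. Genes named were the 10 members, from each list the 3 of smallest p, PHT1;2 and, for each of SPX1, SPX3, PHO1;H1 and PHT1;1, the 2 features most like it; others are marked where they appear. The planned search for a promoter motif was not run. Members and lists were chosen with earlier results of these data known. Alternatives were other normalizations, a filter on dim features, slide and replicate blocks (statmod 1.5.0 for the random block), array weights, eBayes with its trend and robust options, each slide alone and each array left out. The p-values of limma set the genotype difference against the spread among samples of the same genotype.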

Additional observations from a re-analysis of the deposited data

Results flagged for a closer look

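In 108 sets of 4 arrays (54 named genes in each genotype), 7 held an array that stood apart from the others by Dixon's ratio, and chance flags about 5% of such sets. At4 was at 6.92 in WT replicate 3, with the nearest WT array at 7.83; without it the difference of At4 was 0.94 in place of 1.18. G3Pp1 was at 11.64 in the same array, with the nearest at 12.00, and its difference was 0.44 without it. PHT1;2 was at 6.74 in DGTT2 replicate 4, with the nearest DGTT2 array at 6.26. The Rubisco activase gene RCA was at 15.68 in DGTT2 replicate 3, with the nearest at 15.96, close to the highest value on any array, 15.99. DGD2 was at 12.63 in DGTT2 replicate 3 (nearest 12.47), IPS1 at 4.51 in the same array (nearest 5.34) and NPC5 at 6.12 in WT replicate 2 (nearest 5.95). None of the 10 phosphate genes was among the 7.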

How the results depend on the processing

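Of the 10 phosphate genes, 0 were called under any of the 19 alternatives, and the lowest adjusted p was 0.128 for PHO1;H1 and 0.175 for SPX3 (limma), both without DGTT2 replicate 2. The count of features called in all, 22, was 13 with array medians centred, 69 with slide as a fixed block, 46 with trend and robust, 1 on slide 1 alone and 1 on slide 2 alone, and 5 to 39 without 1 array; the cause was not tested, save that a slide alone holds 4 arrays. With the replicate number as a block it was 3, and the adjusted p was 0.255 for SPX3 and 0.192 for PHO1;H1. Same-numbered arrays had correlations of their deviations of 0.07, 0.20, -0.03 and -0.02 for replicates 1 to 4, so the numbers were not taken to pair the samples. Differently numbered arrays of the 2 genotypes had 0.07 to 0.27 on the same slide and -0.24 to 0.03 on different slides. The main fit held no term for slide. Direction turned for SPX1 (-0.174 to 0.0281; without DGTT2 replicate 2 or WT replicate 1) and PHT1;1 (-0.0716 to 0.283; without DGTT2 replicate 1) when 1 array was left out, in 3 of 189 values of the 10 genes. Among the other named genes it turned on slide 1 for PHT1;5 (-0.0663), APL (-0.0251), XCP1 (-0.0284), IRX3 (-0.0657), SQD2 (-0.124), NPC4 (9.05e-04), PYK10 (0.467) and NRT2.1 (0.00172), on slide 2 for PHT1;2 (-0.00511), NYE1 (-0.0907), SQD1 (0.0313) and DGD2 (-0.0575), with medians centred for IRX3 (-0.0174) and NYE1 (-0.0127), and with array weights for NYE1 (-0.00023). Without 1 array, XCP1 ran from -0.00703 to 0.12, IRX3 from -0.0452 to 0.0929, NYE1 from -0.0424 to 0.106, PHT1;2 from -0.0676 to 0.169, SQD1 from -0.0531 to 0.0203 and IRT1 from -0.319 to 0.0518. PHT1;1, PHT1;2, SAG12, RHD6, EXPA18, IPS1 and NPC5 fell under the filter on dim features and had no value there. Signal near background limits PHT1;1, PHT1;2, PHT1;7, AT3G29060, IPS1, NPC4, NPC5, SAG12, RHD6 and EXPA18, and PHT1;8, PHT3;2, RNS1, CASP1, CAB2 and AT1G69480 in WT.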
